A study of Mus musculus with 8 samples.

Results

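Macrophage markers and polarisation genes were 9 genes listed by name: Itgam, Adgre1, Csf1r, Cd68, Cd14 and Lyz2 as identity genes, Nos2 as a marker of M1 polarisation, and Arg1 and Mrc1 as markers of M2 polarisation. All 9 were measured, by 11 probe sets, among 12393 genes on each array, and each gene except Csf1r, with 3, had 1 probe set. The arrays profiled intestinal epithelial cell preparations from mice, in a study of how the kinase IKKα acts in early Wnt-driven tumour growth. There were 4 groups of 2 arrays. The wild type mice (WT) carried neither alteration. The IkkαAA/AA mice (IKKa-AA here) were homozygous for an allele of IKKα that lacks residues needed for its activation. The β-catc.a. mice (bCATca) had β-catenin stabilised in the intestinal epithelium by tamoxifen, and the β-catc.a./IkkαAA/AA mice (double mutants) had both alterations. All 4 groups, WT included, were of mixed descent from C57BL/6, 129Sv and FVB, received tamoxifen by gavage on 5 days and were sampled on day 15 after its start. Ages, the promoter driving the recombinase, and the number of animals behind an array are not given in the sources used here. The labels do not limit the AA allele to the epithelium.

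Macrophages are abundant in the lamina propria below the gut epithelium, where many develop from blood monocytes under the receptor encoded by Csf1r. Their polarisation is often described by 2 poles. M1 cells, driven by interferon-γ and bacterial products, make nitric oxide from arginine through the enzyme encoded by Nos2. M2 cells, driven by interleukin-4, turn arginine into ornithine through arginase 1, encoded by Arg1, and carry the mannose receptor encoded by Mrc1. Several of these genes are not restricted to macrophages: epithelial cells can express Nos2 and Cd14, and lysozyme is a product of Paneth cells in the crypt. The study is known for asking whether IKKα affects the recruitment of M1-like myeloid cells to intestinal tumours. In bulk RNA of this kind, fewer cells of a type and less RNA per cell cannot be told apart.

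The epithelial character of the preparations was clear in their own markers. Epcam, an epithelial adhesion molecule, read 12.48 to 12.65 (log2 intensity) on the 8 arrays, and none of 12 epithelial genes except Krt18 passed a test in any comparison. Transcripts that should be absent set a rough ceiling of background at 4.03: Y-linked genes on the only array with high Xist, WT replicate 1, and Xist on the others, which also shows that the WT arrays came from different animals. By this measure 2718 genes (21.9%) were at background in every group. Between its own 2 arrays, IKKa-AA varied more than any other group did, with an SD of the replicate difference over all genes of 0.431 against 0.292 to 0.336. Where leaving out either of them changed a call on a member, the value without it is given. Levels below are log2 intensities, and each difference is taken between 2 group means of log2 values (n = 2 arrays each) with its limma standard error (SE). Passing the test means a limma p, adjusted by Benjamini-Hochberg across the 12393 genes, of less than 0.05.

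Of the 9 macrophage genes, Cd14 alone passed a test, and it did so in 1 comparison: it rose 2.50-fold in bCATca against WT. In that comparison 9.29% of all genes passed and 5.74% passed as higher. None of the 9 passed in IKKa-AA against WT (0.00807% of all genes), in double mutants against bCATca (1.21%), in double mutants against IKKa-AA (0.0565%), in the interaction of both alterations (0.0888%) or in the effect of the AA allele averaged over both β-catenin states (0.0403%). At an unadjusted limma p under 0.05, members numbered 2, 4, 1, 2 and 3 in these comparisons, and the share of all genes was 11.7%, 14.8%, 6.93%, 15.7% and 12.2%. With the trend and robust settings of limma the count was also 0 in each of the 5. The arrays of the 2 groups did not overlap for 5 members in bCATca against WT (63.3% of all genes), 4 in IKKa-AA against WT (45.9%), 6 in double mutants against bCATca (46.8%) and 3 in double mutants against IKKa-AA (33.8%). Of these counts, 6 of 9 alone was a larger share than that of all genes. The median difference of the 9 genes was -0.07 in bCATca against WT, beside 0.01 for all genes, and -0.01 in double mutants against bCATca, beside 0.00.

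**Figure D1:**
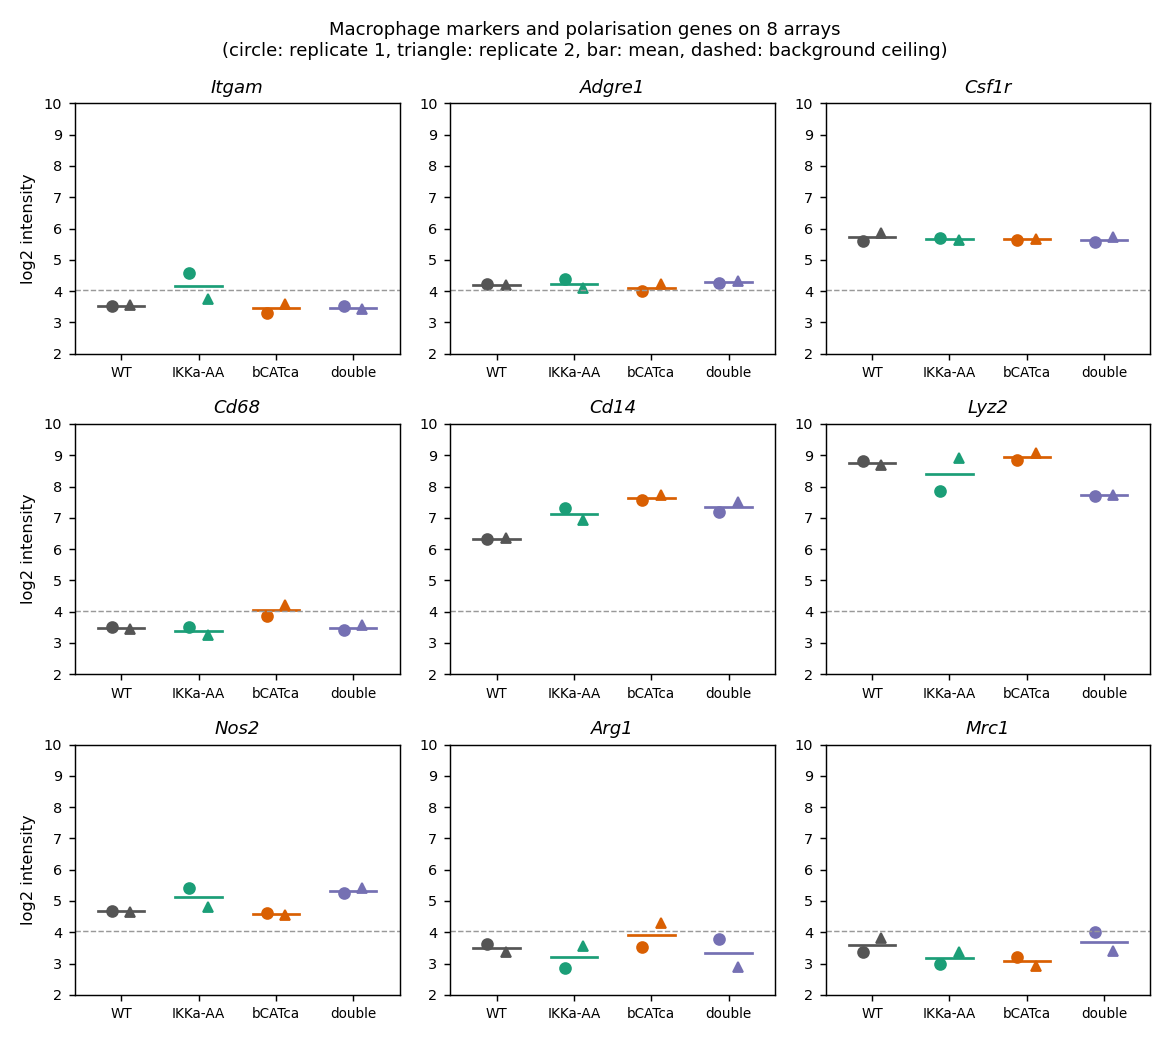
Log2 intensity of each of the 9 genes (vertical axis) in the 4 genotype groups (horizontal axis), with a circle for replicate 1, a triangle for replicate 2 and a bar for the group mean; the dashed line is the background ceiling of 4.03. Cd14 is lowest in WT, Lyz2 is low in both double mutants and in IKKa-AA replicate 1, and Arg1 and Mrc1 lie around or under the dashed line.

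Of the defining macrophage markers, Itgam, Adgre1 and Cd68 were at or close to background, and Csf1r was above it. Itgam, which encodes the αM chain of the integrin CD11b on myeloid cells, read 3.52 and 3.55 on the WT arrays, 4.59 and 3.76 on those of IKKa-AA, 3.30 and 3.60 on those of bCATca and 3.51 and 3.42 on those of double mutants. Only IKKa-AA replicate 1 stood above the background ceiling. The difference of IKKa-AA from WT was 0.64 (SE 0.25, adjusted p = 0.390), and without IKKa-AA replicate 2 it was 1.05 (adjusted p = 0.0306), so that this value rests on a single array.

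Adgre1, which encodes a surface receptor of mature mouse macrophages, read 4.23 and 4.19 for WT, 4.39 and 4.10 for IKKa-AA, 4.00 and 4.22 for bCATca and 4.26 and 4.32 for the double mutants. All 8 readings lay close to the background ceiling, and bCATca and double mutants were the only pair of groups compared that did not overlap (difference 0.18, SE 0.15, adjusted p = 0.626). The 95% intervals of the 4 differences between groups ran from -0.45 to 0.53 in all.

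Csf1r, the receptor for colony-stimulating factor 1, was flat. Its brightest probe set read 5.59 and 5.85 on the WT arrays, 5.70 and 5.63 on those of IKKa-AA, 5.64 and 5.66 on those of bCATca and 5.56 and 5.72 on those of double mutants. The order of the group means was WT 5.72, IKKa-AA 5.67, bCATca 5.65 and double mutants 5.64, and no neighbours in it differed beyond their spread. The intervals bound its differences between -0.41 and 0.33. Its other 2 probe sets ranged from 4.76 to 5.38 and from 4.39 to 4.69 over the arrays, and no probe set passed in any comparison.

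Cd68, which encodes a lysosomal glycoprotein of macrophages, read 3.51 and 3.46 for WT, 3.51 and 3.26 for IKKa-AA, 3.86 and 4.23 for bCATca and 3.41 and 3.56 for the double mutants. Both bCATca arrays were above the other 6, and bCATca replicate 2 was the only array above the background ceiling. The differences were 0.56 (SE 0.17, adjusted p = 0.0718) for bCATca against WT and -0.56 (SE 0.17, adjusted p = 0.173) for double mutants against bCATca. These comparisons share the bCATca arrays, so both values rest on the same readings. Without bCATca replicate 2 they were 0.38 and -0.38.

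Cd14 encodes the co-receptor that hands bacterial lipopolysaccharide to the TLR4 complex. It read 6.31 and 6.35 on the WT arrays, 7.32 and 6.93 on those of IKKa-AA, 7.57 and 7.74 on those of bCATca and 7.19 and 7.51 on those of double mutants. Both WT arrays were the lowest of the 8, both bCATca arrays were the highest, and the IKKa-AA and double mutant arrays lay between them and overlapped. It rose by 1.32 in bCATca against WT (SE 0.18, 95% interval 0.91 to 1.74, adjusted p = 0.00507). The call was lost in 1 of 8 fits with an array left out, without bCATca replicate 2 (difference 1.24, adjusted p = 0.0503), and it held under the other 9 settings tried.

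In IKKa-AA the value of Cd14 against WT was 0.80 (SE 0.18, adjusted p = 0.306), and without IKKa-AA replicate 2 it was 0.99 (adjusted p = 0.0412). Double mutants differed from bCATca by -0.30 (SE 0.18, adjusted p = 0.482) and from IKKa-AA by 0.22 (SE 0.18, adjusted p = 0.871). The interaction for Cd14, which asks whether stabilised β-catenin shifts it by another amount when the AA allele is present, was -1.10 (SE 0.25, 95% interval -1.68 to -0.51, adjusted p = 0.123). Without IKKa-AA replicate 2 the interaction was -1.30 (adjusted p = 0.0459). The effect of stabilised β-catenin on Cd14 was thus not shown to differ with the AA allele over all genes tested.

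Cd14 works with other sensors of bacterial products, and 3 of 8 measured genes of that group rose in bCATca against WT, with none lower (median difference 0.62, beside 0.01 for all genes). In that comparison 5.74% of all genes passed as higher. Tlr2, a receptor for bacterial lipopeptides, read 4.39 and 4.45 in WT and 6.03 and 6.39 in bCATca (difference 1.79, SE 0.21, adjusted p = 0.00284). Ly96, which encodes the MD-2 partner of TLR4, read 5.21 and 4.11 in WT and 6.82 and 6.41 in bCATca (1.95, SE 0.33, adjusted p = 0.0119). Tlr1, the partner of TLR2, rose by 1.69 (SE 0.30, adjusted p = 0.0152). Tlr2 kept its call whichever of the 8 arrays was left out. Ly96 lost it without bCATca replicate 1 (adjusted p = 0.0534) and without bCATca replicate 2 (0.0531), and Tlr1 lost it in the 4 fits without a WT or bCATca array (highest adjusted p = 0.109, without WT replicate 2).

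Tlr4 itself stayed at 2.85 to 3.47 on all 8 arrays, under the background ceiling. Myd88, the adaptor of these receptors, read 7.81 and 7.76 in WT and 7.76 to 8.60 over all arrays. None of the 8 genes passed in IKKa-AA against WT, where Ly96 had the smallest p (difference 2.15, SE 0.33, adjusted p = 0.147), nor in double mutants against bCATca, where Tlr2 did (-0.81, SE 0.21, adjusted p = 0.122). Ly96 read 6.41 to 6.98 on the 6 arrays of the altered groups, all above both WT arrays.

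**Figure D2:**
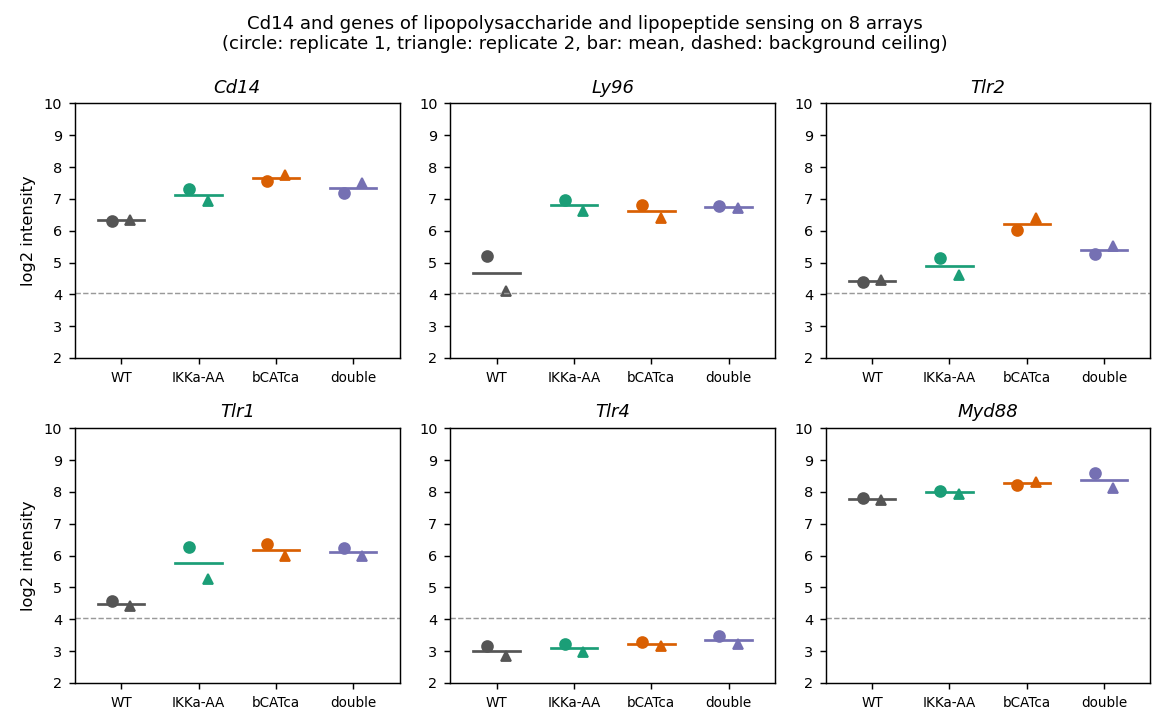
Log2 intensity (vertical axis) of Cd14, Ly96, Tlr2, Tlr1, Tlr4 and Myd88 in the 4 groups (horizontal axis), with a circle for replicate 1, a triangle for replicate 2, a bar for the mean and a dashed line at the background ceiling of 4.03. WT is lowest for Cd14, Ly96, Tlr2 and Tlr1, while Tlr4 stays under the line on all 8 arrays.

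Lyz2, which encodes the lysozyme of macrophages and other myeloid cells, read 8.83 and 8.69 for WT, 7.86 and 8.91 for IKKa-AA, 8.84 and 9.08 for bCATca and 7.69 and 7.74 for the double mutants. The double mutant arrays and IKKa-AA replicate 1 were low and the other 5 arrays were high. The groups of double mutants and bCATca did not overlap. The difference was -1.24 (SE 0.29, 95% interval -1.92 to -0.57, adjusted p = 0.0919), which did not pass. It was the same size and passed when either IKKa-AA array was left out of the fit (adjusted p = 0.00536) or when only these 2 groups were fitted (0.0147). For double mutants against IKKa-AA the value was -0.67 (SE 0.29, adjusted p = 0.715), and -1.19 without IKKa-AA replicate 1 (adjusted p = 0.0202). IKKa-AA differed from WT by -0.38 (SE 0.29, adjusted p = 0.617), by 0.15 without IKKa-AA replicate 1 (0.999) and by -0.90 without IKKa-AA replicate 2 (0.0459). The interaction for Lyz2 was -0.87 (SE 0.42, adjusted p = 0.348), and -1.39 without IKKa-AA replicate 1 (adjusted p = 0.0494). The AA effect averaged over both β-catenin states was -0.81 (SE 0.21, adjusted p = 0.177), and -1.07 without IKKa-AA replicate 2 (adjusted p = 0.00315).

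Lyz2 has a close paralog, Lyz1, the lysozyme of Paneth cells, and the deposited values cannot show whether a probe set reads one or both. The sequences around their start sites are shown because they mark how alike the pair is, from RefSeq on GRCm38.p6, both on the minus strand: Lyz2 at chr10:117282223-117282522 and Lyz1 at chr10:117292819-117293118. Each runs 5′ to 3′ over 250 bases before and 50 after the start, and capitals mark the bases that differ from the other sequence in a global alignment.
Lyz2: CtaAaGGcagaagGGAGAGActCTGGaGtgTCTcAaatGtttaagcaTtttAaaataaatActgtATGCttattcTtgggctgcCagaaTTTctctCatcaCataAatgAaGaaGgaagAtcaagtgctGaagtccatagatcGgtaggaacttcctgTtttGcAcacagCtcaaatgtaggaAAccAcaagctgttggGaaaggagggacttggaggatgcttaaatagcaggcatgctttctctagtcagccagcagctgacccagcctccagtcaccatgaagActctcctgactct
Lyz1: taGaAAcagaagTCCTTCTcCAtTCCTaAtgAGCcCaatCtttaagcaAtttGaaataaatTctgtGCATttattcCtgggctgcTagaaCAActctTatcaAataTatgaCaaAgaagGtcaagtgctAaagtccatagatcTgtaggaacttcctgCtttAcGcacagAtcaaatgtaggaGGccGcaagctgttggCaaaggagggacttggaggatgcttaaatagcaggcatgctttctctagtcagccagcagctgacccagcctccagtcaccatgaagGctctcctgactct
Over the window 249 aligned bases were identical, 49 were mismatched and 4 positions were gaps, an identity of 83.6% of aligned bases. Of the last 100 aligned positions, which span the start of the transcript, 99 were identical. Probe sequences were not at hand, so this likeness does not show which of the pair a probe set reads. The motif GAGGAA, a core bound by the myeloid factor PU.1, was searched on both strands with overlaps counted. It had no match in either lysozyme window, 3 in that of Itgam, 3 in that of Mrc1 and 2 in that of Cd68, and 28.3% of 32851 promoter windows of this length held it. The windows of Adgre1, Csf1r, Cd14, Nos2 and Arg1 were not searched.

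Lyz1 followed the same pattern over the arrays as Lyz2. It read 13.28 and 13.20 on the WT arrays, 12.37 and 13.31 on those of IKKa-AA, 13.29 and 13.31 on those of bCATca and 12.47 and 12.41 on those of double mutants, and the same 3 arrays were low. Double mutants differed from bCATca by -0.86 (SE 0.26, adjusted p = 0.174). Among 3806 genes above background with an SD of at least 0.25, the 3 most like Lyz2 by Pearson's r over the 8 arrays were Elk3 (0.983), Lyz1 (0.983) and Jchain (0.977). Jchain encodes the joining chain of secreted immunoglobulin A and M. These points share arrays and groups, and the coefficients only order the genes. For deviations from the group means, which leave out the differences between groups, r with Lyz1 was 0.972.

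Pan-leukocyte genes, and T cell genes as a sum, were low on the same 3 arrays as Lyz2. Their part in its values was not tested. Ptprc, the pan-leukocyte antigen CD45, read 9.39 and 9.08 for WT, 7.36 and 9.12 for IKKa-AA, 8.28 and 7.95 for bCATca and 5.89 and 5.86 for the double mutants (double mutants against bCATca -2.24, SE 0.46, adjusted p = 0.0669). It differed from Lyz2 in bCATca against WT, where Ptprc had a value of -1.12 (SE 0.46, adjusted p = 0.150) and Lyz2 one of 0.20 (SE 0.29, adjusted p = 0.686). The summed intensity of 8 pan-leukocyte genes was 2152 and 1511 on the WT arrays, 680 and 1826 on those of IKKa-AA, 1385 and 1148 on those of bCATca and 412 and 364 on those of double mutants. The sum of 10 T cell genes was 1629 to 2211 in WT, 1023 to 1258 in bCATca and 590 to 617 in double mutants, with 644 and 1756 in IKKa-AA. Not all of them fell: in double mutants against bCATca their differences ran from -3.40 (Cd3g) to 0.17 (Cd4), with a median of -0.51. None of the 18 pan-leukocyte and T cell genes passed in any comparison. Jchain read 8.73 and 8.29 for bCATca but 2.34 and 2.72 for the double mutants, at background in the latter. The sum of 7 Paneth cell genes, Lyz1 included, was 14975 and 14212 for WT and 7596 and 16224 for IKKa-AA. It was 18609 and 20338 for bCATca but 9564 and 9408 for the double mutants. The mean log2 level of these genes was 8.43 and 8.31 for WT and 7.83 and 8.67 for IKKa-AA. It was 9.22 and 9.34 for bCATca and 8.48 and 8.37 for the double mutants. By that mean, Paneth cell genes were not lower in double mutants than in WT, but by their sum they were. The mean includes Pla2g2a, which differed by 3.69 in bCATca against WT and by -1.48 in double mutants against bCATca. Lyz1 itself was lower in double mutants than in WT, so the list did not move as a whole.

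**Figure D3:**
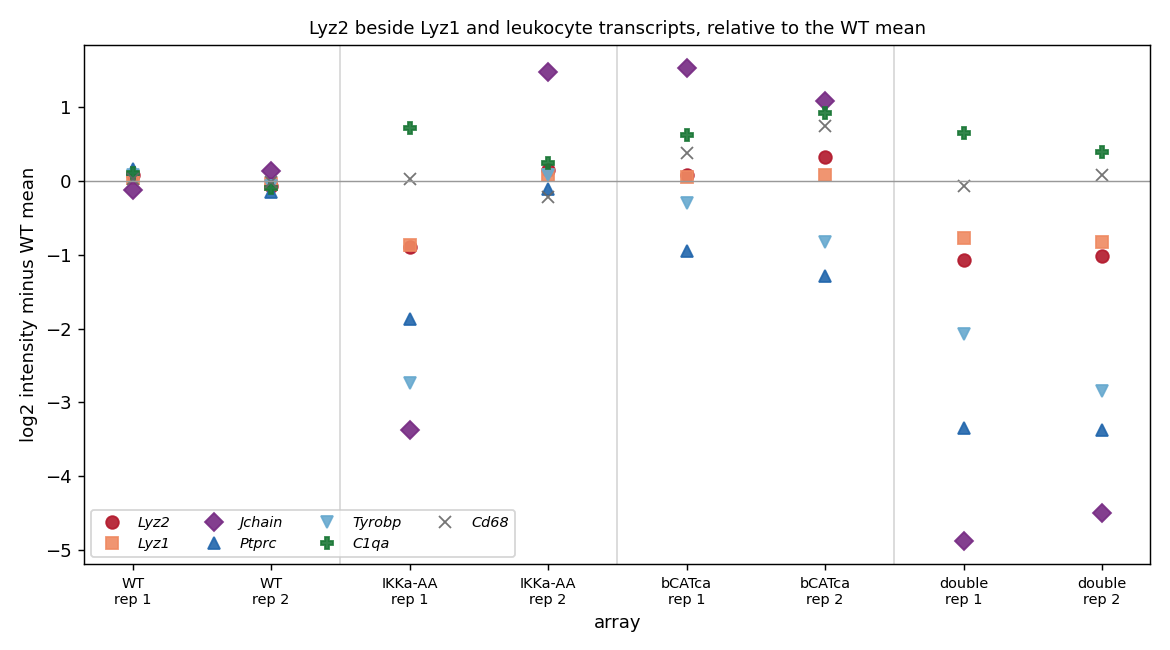
Log2 intensity minus the WT mean (vertical axis) for Lyz2, Lyz1, Jchain, Ptprc, Tyrobp, C1qa and Cd68 on each array (horizontal axis, 2 replicates per group). Lyz2, Lyz1, Jchain, Ptprc and Tyrobp are low on IKKa-AA replicate 1 and on both double mutant arrays, and C1qa and Cd68 do not follow them.

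Nos2, which encodes the inducible nitric oxide synthase, was the M1 marker. It read 4.69 and 4.66 for WT, 5.42 and 4.81 for IKKa-AA, 4.62 and 4.54 for bCATca and 5.25 and 5.41 for the double mutants. All 4 arrays with the AA allele were above all 4 without it, and both bCATca arrays were the lowest. The share of all genes that split these arrays in the same way was not taken. IKKa-AA replicate 2, at 4.81, lay close to WT. The highest readings, on IKKa-AA replicate 1 and both double mutant arrays, were on the arrays low in Lyz2 and pan-leukocyte genes. Any link between these was not tested. The order of the group means was double mutants 5.33, IKKa-AA 5.12, WT 4.68 and bCATca 4.58, and the first 2 of these overlapped. None of the tests passed over all genes. The difference was 0.75 (SE 0.20, 95% interval 0.30 to 1.21, adjusted p = 0.124) for double mutants against bCATca, 0.44 (SE 0.20, adjusted p = 0.433) for IKKa-AA against WT, and 0.60 (SE 0.14, adjusted p = 0.151) for the allele averaged over both β-catenin states.

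These p-values depended on the IKKa-AA arrays. With either IKKa-AA array left out, the difference of Nos2 between double mutants and bCATca kept its size and passed (adjusted p = 0.0266), and without IKKa-AA replicate 2 the averaged effect was 0.75 (adjusted p = 0.0106). Without IKKa-AA replicate 1, the difference of IKKa-AA from WT was 0.14. Stabilised β-catenin went with no detectable change in Nos2: bCATca differed from WT by -0.10 (95% interval -0.55 to 0.36) and double mutants from IKKa-AA by 0.21 (-0.24 to 0.67), and by -0.09 without IKKa-AA replicate 2. Nos2 and Lyz2 ran opposite to each other over the 8 arrays (Pearson's r = -0.95), the strongest relation among all pairs of the 9 genes. These arrays share groups and are not 8 independent points, so the coefficient only orders the pairs.

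Arg1, the M2 arginase, read 3.64 and 3.38 on the WT arrays, 2.86 and 3.57 on those of IKKa-AA, 3.54 and 4.29 on those of bCATca and 3.78 and 2.89 on those of double mutants. One reading, bCATca replicate 2, was above the background ceiling, every group mean was under it, and no 2 groups compared were separate. No direction is therefore read from its differences. Mrc1, the M2 mannose receptor, read 3.38 and 3.81 for WT, 2.98 and 3.36 for IKKa-AA, 3.22 and 2.91 for bCATca and 4.00 and 3.40 for the double mutants. All 8 readings were at or under the ceiling, so its differences, the largest of them 0.63 (SE 0.25, adjusted p = 0.288) for double mutants against bCATca, are differences of readings near background.

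The other genes of arginine and nitric oxide metabolism were mostly well above background in these epithelial preparations. Of 12 measured, 1 rose and 2 fell in bCATca against WT (median 0.01, the same as for all genes, of which 9.29% passed). Otc, the urea cycle enzyme ornithine transcarbamylase, fell by 1.52 (SE 0.16, adjusted p = 0.00157), a call kept whichever array was left out. Arg2, the mitochondrial arginase, read 12.06 and 12.18 on the WT arrays, 11.63 and 12.23 on those of IKKa-AA, 11.24 and 10.47 on those of bCATca and 11.42 and 11.50 on those of double mutants, and fell by 1.27 in bCATca (SE 0.27, adjusted p = 0.0283). Gch1, which makes the cofactor of nitric oxide synthases, rose by 1.13 (SE 0.28, adjusted p = 0.0445). Arg2 lost its call in the 5 fits without a WT or double mutant array or bCATca replicate 2 (highest adjusted p = 0.161, without WT replicate 2), and Gch1 in the 6 fits without a WT, bCATca or double mutant array (highest 0.191, without WT replicate 1). Gch1 also lost it under 5 of 9 other settings (adjusted p = 0.0511 to 0.0724), and Arg2 with the replicate block (0.0530).

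**Figure D4:**
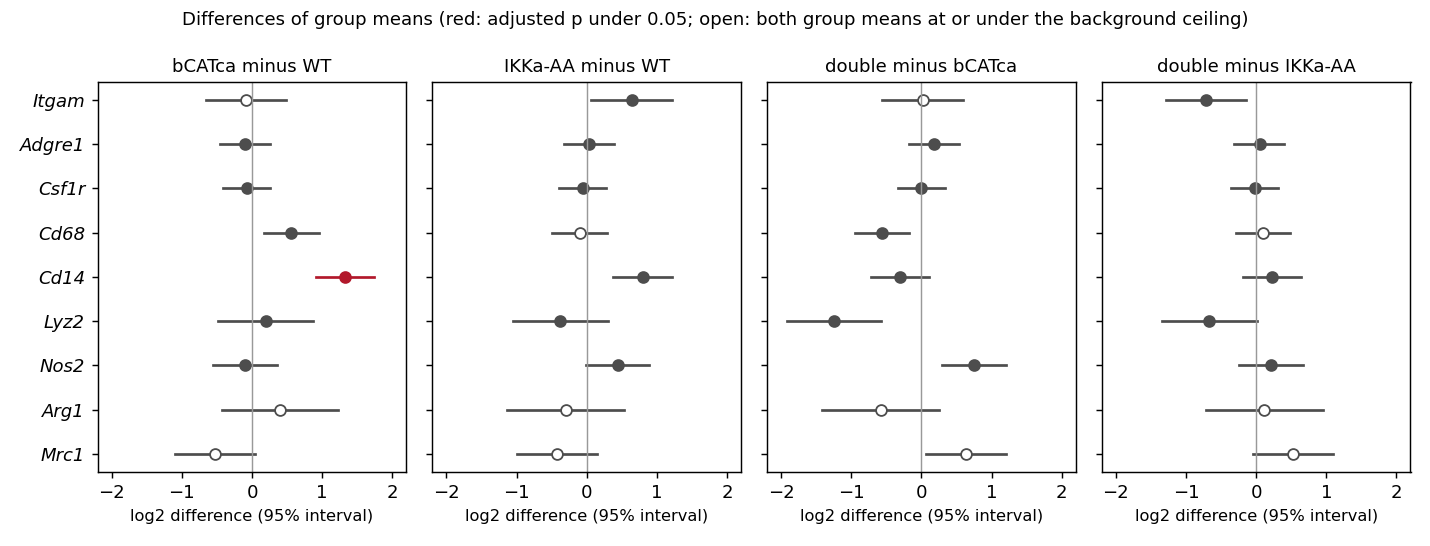
Difference of log2 group means (horizontal axis, line for the 95% interval) for each of the 9 genes in 4 comparisons. Cd14 in bCATca minus WT, in red, is the only difference with an adjusted p under 0.05, and open circles mark differences where both group means were at or under the background ceiling.

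Beyond Nos2, M1-associated genes were taken as a list of 20, of which 18 were measured. In bCATca against WT, where 9.29% of all genes passed, 2 rose and none fell (median 0.19). Socs3, an inhibitor of cytokine signalling, rose by 2.06 (SE 0.44, adjusted p = 0.0288), from 5.81 and 7.37 in WT to 8.50 and 8.79. Cxcl9, a chemokine induced by interferon-γ, rose by 3.16 (SE 0.76, adjusted p = 0.0397), with readings of 4.46 and 3.06 in WT and 5.83 and 8.01 in bCATca. Both lost the call in 5 of the 8 fits with an array left out: for Socs3 without WT replicate 1, either bCATca array or either double mutant array (highest adjusted p = 0.156), and for Cxcl9 without either WT array, bCATca replicate 2 or either double mutant array (highest 0.229). The cytokine genes Tnf and Il1b read 4.96 to 5.64 and 4.46 to 5.12 over the 8 arrays. None of the 18 passed in double mutants against bCATca (median 0.11), where Cxcl11 had the smallest p (0.87, SE 0.39, adjusted p = 0.354). In IKKa-AA against WT (median 0.16) Socs3 had the smallest (1.98, SE 0.44, adjusted p = 0.302).

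Of 19 measured M2-associated genes, 2 rose and none fell in bCATca against WT (median 0.04), where 9.29% of all genes passed. Ccl17, a chemokine, rose by 0.86 (SE 0.22, adjusted p = 0.0471). Tgm2, a transglutaminase that epithelial cells also express, rose by 1.71 (SE 0.44) and passed only just, at an adjusted p that rounds to 0.05. Tgm2 lost its call under 7 of 9 settings other than a left-out array. With arrays left out, Ccl17 and Tgm2 lost their calls in the 5 fits without a WT array, bCATca replicate 2 or a double mutant array (highest adjusted p = 0.259, for Ccl17 without WT replicate 2). In double mutants against bCATca 1 fell: Tgfb1, which encodes a cytokine that restrains inflammation, read 5.25 and 5.33 for bCATca but 4.50 and 4.43 for the double mutants (difference -0.83, SE 0.15, adjusted p = 0.0456). The defining M2 genes Retnla, Chil3 and Il10 were under the background ceiling on all 8 arrays. In double mutants against bCATca the list medians were 0.11 for M1 and -0.16 for M2, beside 0.00 for all genes. Only 10 of the 18 M1 genes and 12 of the 19 M2 genes had any group mean above the background ceiling. These medians therefore rest in part on readings near background, and no shift between M1 and M2 is read from them.

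**Figure D5:**
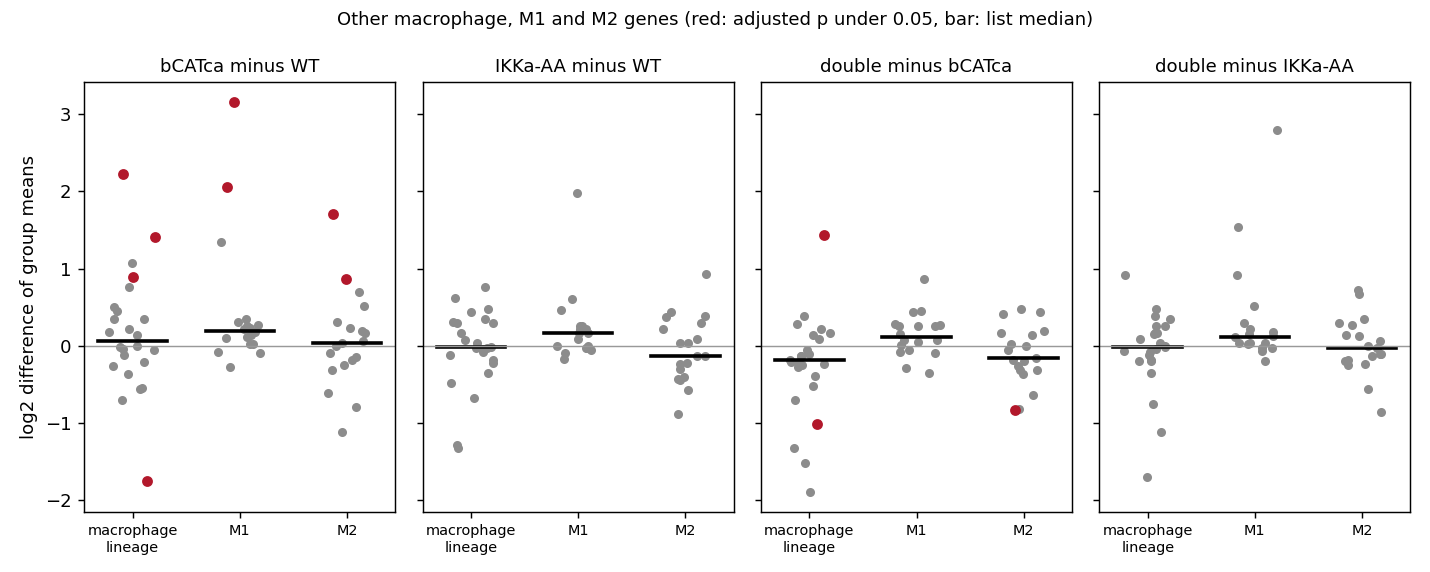
Difference of log2 group means (vertical axis) for measured genes of 3 lists (horizontal axis: 24 other macrophage genes, 18 M1-associated and 19 M2-associated genes) in 4 comparisons, each point a gene, red where the adjusted p was under 0.05, with a bar at the list median. The medians lie between -0.19 and 0.19.

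Of 24 other genes of the macrophage lineage, 3 rose and 1 fell in bCATca against WT (median 0.06), beside 9.29% of all genes that passed. Lgmn, a lysosomal protease also made outside macrophages, read 6.69 and 6.59 in WT and 8.80 and 8.94 in bCATca, and rose by 2.23 (SE 0.18, adjusted p = 0.000712, a call kept whichever of the 8 arrays was left out). Mertk, a receptor for the uptake of dying cells, fell by 1.76 (SE 0.25, adjusted p = 0.00664), from 10.12 and 9.95 to 8.55 and 8.01. Csf2ra, a chain of the receptor for granulocyte-macrophage colony-stimulating factor, rose by 0.89 (SE 0.14, adjusted p = 0.00969) on its brightest probe set, while the mean of all its probe sets differed by 0.36 (adjusted p = 0.0883). Clec7a, a receptor for fungal β-glucans and the other gene that rose, differed by 1.41 (SE 0.24, adjusted p = 0.0138). Mertk lost its call without WT replicate 1 (adjusted p = 0.0591) and without bCATca replicate 2 (0.0538), and Csf2ra without either WT array or bCATca replicate 2 (highest 0.077).

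Double mutants differed from bCATca in the opposite direction for the first 2 of these, with the bCATca arrays shared by both comparisons. Mertk read 9.46 and 9.95 in double mutants and rose by 1.43 (SE 0.25, adjusted p = 0.0439), and Lgmn read 7.84 and 7.88 and fell by 1.01 (SE 0.18, adjusted p = 0.0456). Otc rose by 0.89 (SE 0.16, adjusted p = 0.0408), and Ccl3, a monocyte chemokine and the only one of 14 colony-stimulating factor and recruitment genes to pass in any comparison, fell by 0.87 (SE 0.16, adjusted p = 0.0453). Mertk, Lgmn, Otc, Ccl3 and Tgfb1 each lost their call in the 6 fits without a WT, bCATca or double mutant array (highest adjusted p = 0.241, for Lgmn without double mutant replicate 1).

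Genes more specific to macrophages gave a mixed picture. The complement gene C1qa read 4.87 and 4.67 for WT, 5.48 and 5.01 for IKKa-AA, 5.39 and 5.68 for bCATca and 5.41 and 5.16 for the double mutants. Both WT arrays were the lowest, and bCATca differed from WT by 0.76 (SE 0.20, adjusted p = 0.0511), which did not pass. The related C1qb and C1qc differed by 1.07 (SE 0.31, adjusted p = 0.068) and 0.45 (SE 0.24, adjusted p = 0.249) in that comparison. Fcgr1 and Cd163, which encode an Fc receptor and a scavenger receptor, were under the background ceiling on all 8 arrays, at 2.54 to 3.03 and 2.23 to 2.74. Tyrobp and Fcer1g, adaptors shared by myeloid and natural killer cells, instead followed Ptprc. Tyrobp read 8.20 and 8.06 on the WT arrays, 5.39 and 8.20 on those of IKKa-AA, 7.83 and 7.30 on those of bCATca and 6.05 and 5.28 on those of double mutants (double mutants against bCATca -1.90, SE 0.74, adjusted p = 0.282). Itgb2, which encodes an integrin chain, differed by -1.52 in double mutants against bCATca (SE 0.34, adjusted p = 0.084). Its averaged AA effect was -0.94 (SE 0.24, adjusted p = 0.18), and neither passed.

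Lists for other cell types moved less evenly. The sum of 10 neutrophil genes was highest in double mutants, where Lyz2 was lowest: it was 155 and 158 on the WT arrays, 233 and 138 on those of IKKa-AA, 174 and 262 on those of bCATca and 273 and 278 on those of double mutants. Ltf, which encodes lactoferrin, carried most of that spread, and without it the sums were 108 to 146. Of the neutrophil genes only Cxcr2, near background, passed in bCATca against WT (-0.70, SE 0.14, adjusted p = 0.0234). Of 8 dendritic cell genes none passed, with a median of -0.08 in double mutants against bCATca. Their sum was 357 to 433 in WT and 165 to 174 in double mutants, but 163 to 168 and 140 to 145 without Itgae, an integrin chain that intestinal T cells also carry. The 8 B and plasma cell genes summed to 478 to 561 in bCATca and 124 to 132 in double mutants, but to 136 to 166 and 118 to 127 without Jchain. Of these genes Ms4a1 alone fell (-1.14, SE 0.18, adjusted p = 0.0276), and the list median was -0.33. Of 9 mast cell genes, the proteases Mcpt2 and Mcpt1 rose by 1.85 and 1.59 in bCATca against WT and fell by 2.60 and 2.82 in double mutants against bCATca. The list medians in these comparisons were -0.13 and 0.03, so these proteases do not stand for the list. Of 11 stromal genes Vim rose by 1.20 and Des fell by 0.73 in bCATca against WT, and of 9 endothelial genes Vwf rose by 1.03, while the 2 lists summed to 337 to 499 and 251 to 328. With an offset of 16 before log2, Vwf differed by 0.37 in that comparison and Ms4a1 by -0.50 in double mutants against bCATca. Vwf and Ms4a1 both lost their calls with it, so these calls rest on low readings. Of 7 Paneth cell genes Pla2g2a and Mmp7 rose by 3.69 and 1.89 in bCATca against WT, and Pla2g2a fell by 1.48 in double mutants against bCATca. Apart from the rise of Pla2g2a, each call in these lists was lost without at least 1 WT, bCATca or double mutant array (highest adjusted p = 0.257, for Mcpt1 without WT replicate 2). The call on Mcpt1 in bCATca against WT, at an adjusted p of 0.0473, was also lost under 7 of 9 other settings (0.0525 to 0.0724). The part of these cells in the values of the 9 macrophage genes was not tested.

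The genes with patterns most like the other members differed from gene to gene. The nearest to Cd14 were Actn1 (r = 0.995), Irak1 (0.983) and Slc44a4 (0.981), and the nearest to Nos2 were Gp1bb (0.959), Nudt5 (0.943) and Elac1 (0.940). For Cd68 they were Smarcad1 (0.973), Top1mt (0.966) and Apex1 (0.959), and for Itgam Rdh11 (0.949), Zfp101 (0.916) and Dffb (0.913). Cd68 and Itgam each had a single array above the background ceiling, so their coefficients rest mostly on readings near background. The flat genes had weaker neighbours, with Taok1 (0.882), Greb1 (0.769) and Neurod1 (0.754) for Csf1r, and Angptl8 (0.851), Parm1 (0.851) and Ndufaf4 (0.849) for Adgre1. No member was among the 3 nearest genes of another. Only Cd14, Lyz2 and Nos2 met the limits on level and SD for being such a neighbour, so this says nothing about the other members.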

How the data were processed

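The deposited values were intensities, 1 per probe set and array on a linear scale, made by the authors with RMA and affy according to the submitters' processing notes, which list no versions. RMA evens out the arrays and can shrink large differences. Array medians were 50.9 to 53.8. Arrays hold no read depth, and their number limits the precision.

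For this report log2 was taken, symbols came from the platform annotation, updated through Entrez ID, and the probe set with the highest mean stood for a gene. Of 22690 probe sets, 20380 had 1 symbol, 691 several, 1555 none and 64 were controls; those without a single symbol named no gene. Limma 3.58.1 in R 4.3.3 fitted 1 mean per group to all 8 arrays (4 residual degrees of freedom), adjusted p over 12393 genes, and was tested on simulated data. The labels do not call replicates separate animals, so outside WT, whose arrays differ in sex-linked genes, p-values may in part measure technical spread. Deviations of same-numbered replicates correlated at -0.448 to 0.15 between groups, so numbers were not used to pair samples. The gene encoding IKKα is not analysed here.

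The 9 members and 17 further gene lists were chosen with earlier results of these data known. From each list, the genes named were mainly drawn from up to 3 with the smallest p that passed in a comparison, or else the 1 with the smallest p. Not all genes picked by this rule are printed. Lyz1 and Arg2 were added as paralogs, with the 3 nearest neighbours of each member above background. Clec7a, C1qa, C1qb, C1qc, Cd163, Fcgr1, Tyrobp, Fcer1g, Tnf, Il1b, Retnla, Chil3, Il10, Tlr4, Myd88 and Epcam were added after their values were seen. Of the 4 sex-linked genes measured, which set the background ceiling, none passed. Alternatives were quantile and cyclic loess normalisation, an offset of 16, a minimum mean of 5, other probe set rules, trend and robust settings, a replicate block, fewer groups, and each array left out. Promoter windows came from the RefSeq table given for GRCm38.p6, with Biopython 1.88 for alignment. Other tools were numpy 2.4.6, pandas 2.3.3 and, for figures, matplotlib 3.10.9, under Python 3.11.15.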

Additional observations from a re-analysis of the deposited data

How the results depend on the processing

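Of 432 values of the 9 macrophage genes under settings other than a left-out array, 424 kept their direction and their side of the threshold, 1 passed newly (Lyz2 in double mutants against bCATca, with only these groups fitted, which took the count of members passing from 0 to 1) and 7 changed sign near 0. Those 7 were Cd68 in IKKa-AA against WT under quantile normalisation (0.0002), Itgam in double mutants against bCATca under quantile normalisation (-0.03) and cyclic loess (-0.04), Csf1r in double mutants against bCATca under quantile normalisation (0.05) and cyclic loess (0.0004), Adgre1 in double mutants against IKKa-AA under cyclic loess (-0.0045), and Csf1r there over the mean of its probe sets (0.0038). With each array left out in turn, 391 of 432 member values kept both, 12 passed newly, 1 no longer passed and 28 changed sign. The number of members that passed then ranged from 0 to 1 in bCATca against WT, 0 to 3 in IKKa-AA against WT, 0 to 2 in double mutants against bCATca, 0 to 1 in double mutants against IKKa-AA, 0 to 1 in the interaction and 0 to 2 in the averaged AA effect. Differences that changed sign ranged, for Adgre1, from -0.21 to 0.01 in bCATca against WT, from -0.11 to 0.18 in IKKa-AA against WT and from -0.10 to 0.19 in double mutants against IKKa-AA. For Csf1r in the order of comparisons just given they ranged from -0.20 to 0.06, -0.19 to 0.07, -0.09 to 0.07, -0.10 to 0.06, -0.08 to 0.18 and -0.10 to 0.03. Near background, Itgam ranged from -0.24 to 0.06 in bCATca against WT and from -0.13 to 0.16 in double mutants against bCATca, and Cd68 from -0.22 to 0.03 in IKKa-AA against WT and from -0.03 to 0.23 in double mutants against IKKa-AA. Arg1 ranged from -0.65 to 0.05 in IKKa-AA against WT, from -0.32 to 0.56 in double mutants against IKKa-AA and from -0.72 to 0.16 in the interaction, and Mrc1 from -0.05 to 0.25 in the averaged AA effect. Lyz2 ranged from -0.90 to 0.15 in IKKa-AA against WT, and Nos2 from -0.09 to 0.52 in double mutants against IKKa-AA. The single arrays behind these extremes are given beside the results for Itgam, Cd14, Lyz2 and Nos2.

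Genes of the 17 other lists that passed numbered 23 in bCATca against WT, 14 with an offset of 16, and 7 to 35 with an array left out. In double mutants against bCATca they numbered 9, against 4 with the offset, 4 with a minimum mean of 5, 4 over all probe sets, 27 with only these groups fitted, and 0 to 31 with an array left out. In the other comparisons the main count was 0. It was 1 over all probe sets and 3 with the trend and robust settings in the interaction, and with an array left out it ranged up to 18 in IKKa-AA against WT, 21 in double mutants against IKKa-AA, 7 in the interaction and 30 in the averaged AA effect. The replicate block, tried although the numbers did not pair the samples, left 15 list genes in bCATca against WT and 2 in double mutants against bCATca, and Cd14 kept its call with the block (adjusted p = 0.0138). Dim members, above all Arg1, Mrc1, Itgam and Cd68, are limited by readings near background. Of the list genes that passed in double mutants against bCATca, Mertk kept its call under 4 of 9 settings other than a left-out array, Lgmn under 5 of 9, Otc under 6 of 9, Ccl3 under 5 of 8 and Tgfb1 under 4 of 8. In bCATca against WT, Socs3 kept it under 7 of 9, Cxcl9 under 6 of 9 and Ccl17 under 4 of 8. The cause of these shifts was not tested.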
